A study of Mus musculus with 6 samples.

Results

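The genes described here are 39 mouse genes that act just below the activating receptors of lymphocytes. They are 6 kinases (Lck, Lyn, Fyn, Syk, Zap70 and Txk), 6 adaptors (Lat, Lat2, Sh2d1a, Sh2d1b1, Sh2d2a and Grb2), 7 phospholipases and exchange factors (Plcg1, Plcg2, Vav1, Vav2, Vav3, Sos1 and Rasgrp1), PKC theta (Prkcq) with its partners Bcl10 and Malt1, 5 genes of calcium release and entry (Stim1, Stim2, Orai1, Itpr1 and Itpkb) and 12 phosphatases, ubiquitin ligases and other negative regulators (Ptpn6, Ptpn11, Ptpn22, Ptprc, Inpp5d, Cbl, Cblb, Csk, Dgka, Dgkz, Ubash3a and Ubash3b). Their members in the data were the accessible regions whose nearest gene was one of these and whose distance to its transcription start site was at most 100 kb, which gave 295 of the 51775 peaks, with at least 1 peak near each of the 39 genes. Assigning a region to its nearest gene goes by distance alone and does not name the gene it regulates.

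The assay was ATAC-seq, which uses a transposase to cut and tag DNA wherever chromatin is open, and the cells were natural killer (NK) cells of the spleen of C57BL6 mice. The wildtype and the Rroid-deficient group had 3 libraries each, Rroid being a locus that gives a long non-coding RNA. Both groups were sorted as CD3- CD5- NK1.1+ NKp46+ cells and 50000 cells were used, per the labels, which give no age, no treatment and no description of the deficient allele, and do not say whether libraries came from separate animals. The p-values therefore measure only the spread between these libraries, which may be technical, and in cells assayed in bulk a change per cell and a change in the mix of cells cannot be told apart.

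NK cells read activating receptors through adaptor chains whose tyrosines are phosphorylated by Src-family kinases such as Lck and Fyn, after which Syk and Zap70 dock on them. These kinases phosphorylate the scaffolds Lat and Lat2. Signalling further down involves phospholipase C gamma and the Vav exchange factors. It leads to calcium entry through Stim and Orai proteins and to Ras and NF-kappaB signalling through Rasgrp1, PKC theta, Bcl10 and Malt1. The same steps are reversed or limited by the phosphatases Ptpn6 (SHP-1) and Ptpn22, the lipid phosphatase Inpp5d (SHIP-1), the Src-inhibiting kinase Csk, the Cbl ubiquitin ligases and the diacylglycerol kinases Dgka and Dgkz.

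The start-site regions of 4 of these genes are printed because their own promoter peaks changed, up at Dgka and Lck and down at Syk and Ptpn22. The sequences are RefSeq's, build GRCm38.p6, with 250 bases before and 50 after the start site, and the accessible peak at each start covered the whole window. Capitals mark matches, on either strand, to the E boxes CAGCTG (bound by basic helix-loop-helix proteins) and CAGGTG (bound by some of these and by zinc-finger proteins) and to TGNGGTT (RUNX proteins). The Dgka window is chr10:128744027-128744326 on the minus strand, the Lck window is chr4:129573592-129573891 on the minus strand at the start site nearest to the Lck peak that rose, the Syk window is chr13:52583187-52583486 on the plus strand and the Ptpn22 window is chr3:103859545-103859844 on the plus strand.
Dgka: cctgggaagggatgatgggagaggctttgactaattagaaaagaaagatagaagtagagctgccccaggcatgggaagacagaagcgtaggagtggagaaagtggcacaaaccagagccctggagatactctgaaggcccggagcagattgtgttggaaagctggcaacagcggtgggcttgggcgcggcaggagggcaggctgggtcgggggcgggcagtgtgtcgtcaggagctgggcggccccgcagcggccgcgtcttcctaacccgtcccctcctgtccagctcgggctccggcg
Lck: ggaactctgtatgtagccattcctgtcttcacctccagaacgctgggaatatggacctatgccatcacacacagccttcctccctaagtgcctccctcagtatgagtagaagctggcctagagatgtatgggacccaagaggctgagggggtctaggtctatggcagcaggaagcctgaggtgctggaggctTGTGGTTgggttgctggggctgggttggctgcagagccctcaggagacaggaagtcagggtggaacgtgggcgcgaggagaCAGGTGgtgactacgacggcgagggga
Syk: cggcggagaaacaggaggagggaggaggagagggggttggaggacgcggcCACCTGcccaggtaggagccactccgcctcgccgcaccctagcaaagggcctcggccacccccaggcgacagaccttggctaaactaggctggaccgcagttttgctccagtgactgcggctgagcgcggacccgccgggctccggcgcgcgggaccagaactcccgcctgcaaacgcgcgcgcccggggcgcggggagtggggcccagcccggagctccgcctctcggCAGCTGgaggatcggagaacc
Ptpn22: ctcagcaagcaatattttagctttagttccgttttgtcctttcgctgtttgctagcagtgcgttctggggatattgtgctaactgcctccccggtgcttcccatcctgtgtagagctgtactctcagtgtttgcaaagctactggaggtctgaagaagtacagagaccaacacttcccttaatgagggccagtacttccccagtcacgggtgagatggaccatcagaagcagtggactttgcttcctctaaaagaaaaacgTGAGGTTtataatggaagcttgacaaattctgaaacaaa

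Of the 39 genes, 33 were matched to RefSeq promoters, with 49 start sites. Chromosome 18, where Malt1 lies, was left out of this matching but not by choice out of the set of all start sites. The 6 motifs searched on both strands were those 3 with CCGGAA (ETS proteins), GGTGTGA (T-box proteins) and CTTTGAT (TCF and LEF proteins), none of which contains another. The Lck window held CAGGTG at position +24, counted with the first transcribed base as +1, and TGTGGTT at position -58, whereas the Dgka window held no match to any of the 6. Syk had CAGCTG at position +30 and the reverse of CAGGTG at position -200, and Ptpn22 had TGAGGTT at position +12. Among all 32851 RefSeq start sites, 20.2% of windows held CAGGTG, 16.3% CAGCTG, 14.9% TGNGGTT, 14.9% CCGGAA, 3.98% GGTGTGA and 3.73% CTTTGAT. For the 49 start sites of the signalling genes the shares were 28.6%, 10.2%, 22.4%, 12.2%, 4.08% and 2.04% in the same order. A match describes letters in a window and is neither a bound site nor a cause of the change.

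Accessibility near the signalling genes changed at single regions in both directions, at some genes in both. Of the 295 peaks, 39 were higher and 43 were lower in the Rroid-deficient libraries at an adjusted p under 0.05 (limma on log2 of the normalized read value plus 1, Benjamini-Hochberg over all peaks), and 213 had no call. The called share was 27.8%, close to the 25.8% of all 51775 peaks. It split into 13.2% higher and 14.6% lower, where all peaks gave 13.8% higher and 12.1% lower. The median log2 fold change, deficient minus wildtype, was -0.04 at the signalling genes and -0.01 over all peaks. The 3 libraries of each group did not overlap at 129 of the 295 peaks (43.7%), against 40.1% of all peaks. Over all peaks, 12844 of the 13383 called ones had no overlap. Here 79 of the 82 called peaks were among the 129. The exceptions were Fyn at 7.14 kb, Inpp5d at 0.696 kb and Csk at 11.5 kb.

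Changes of at least 2-fold were mostly gains, here as over all peaks. Of the 295 peaks at the signalling genes, 11 were called and at least 2-fold higher and 3 at least 2-fold lower. Of all 51775 peaks, 2641 (5.1%) and 991 (1.91%) were. The number of lower calls changed with single libraries. It was 18 without wildtype library 2, 21 without Rroid-deficient library 4 and 24 without Rroid-deficient library 6. Over all peaks the lower calls fell too, from 6257 to 4039, 4854 and 4173 in the same order. Higher calls numbered 27 to 39 when 1 library was left out. Over all peaks they went from 7126 to between 5218 (without Rroid-deficient library 6) and 7508 (without wildtype library 1). In all, 42 of the 82 calls, 24 of the 39 higher and 18 of the 43 lower, were kept in each of the 6 leave-outs (fits without 1 library).

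By gene, 13 had calls in both directions (Fyn, Syk, Txk, Plcg1, Rasgrp1, Prkcq, Malt1, Ptpn11, Ptprc, Inpp5d, Csk, Dgkz and Ubash3b) and 9 had only higher calls (Lck, Zap70, Grb2, Vav3, Sos1, Stim1, Stim2, Itpkb and Dgka). There were 7 genes with only lower calls (Lat2, Sh2d2a, Plcg2, Itpr1, Ptpn6, Ptpn22 and Cblb) and 10 with none (Lyn, Lat, Sh2d1a, Sh2d1b1, Vav1, Vav2, Bcl10, Orai1, Cbl and Ubash3a). These counts can depend on the number of peaks per gene and were not set against all genes. Calls in both directions were kept in each leave-out at Fyn, Syk, Plcg1, Rasgrp1, Ptprc and Ubash3b. Txk, Prkcq, Malt1, Ptpn11, Csk and Dgkz kept calls in a single direction. Inpp5d, Grb2, Vav3, Sos1, Dgka, Sh2d2a and Ptpn22 kept no call in each leave-out.

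**Figure D1:**
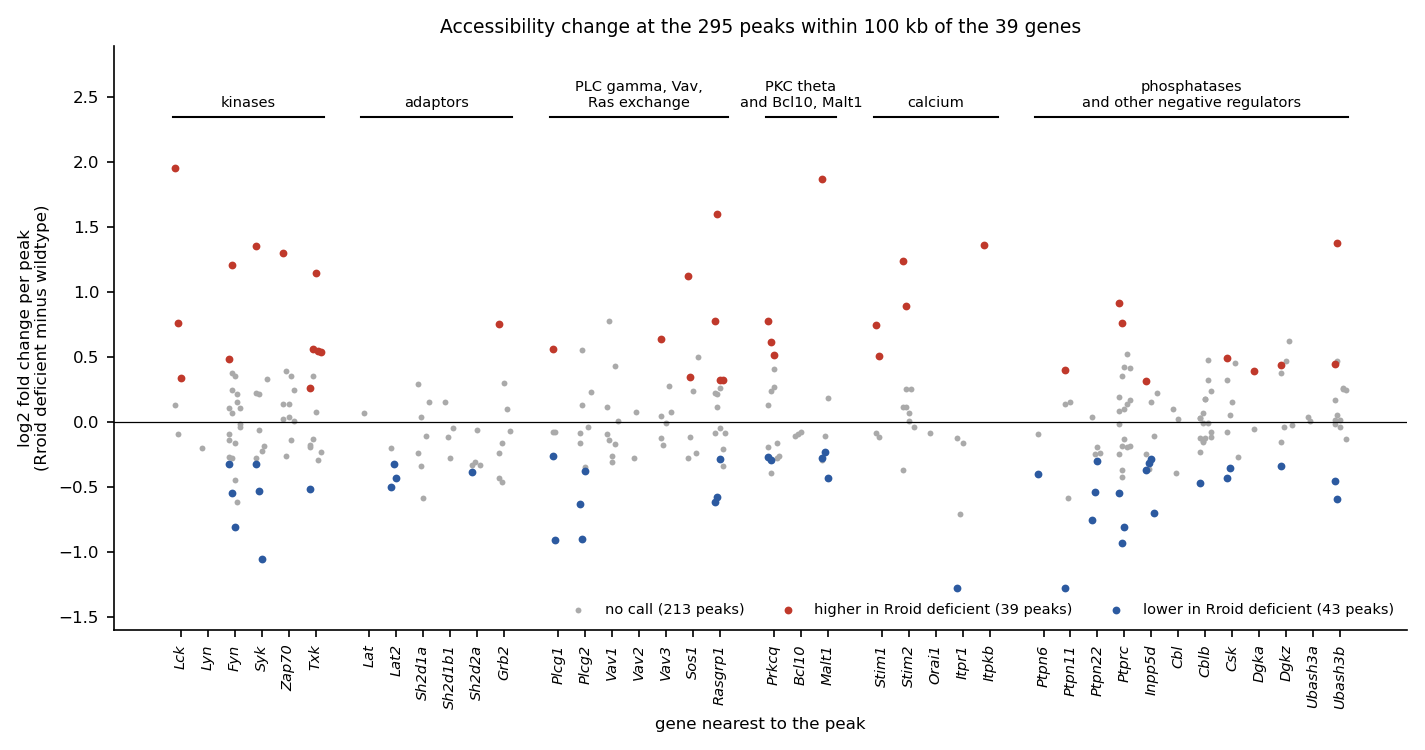
Log2 fold change (Rroid deficient minus wildtype, vertical axis) of each of the 295 peaks, placed above its nearest gene and grouped by role, with 39 higher calls in red, 43 lower calls in blue and 213 peaks without a call in grey. The highest points belong to Lck (1.95) and Malt1 (1.87), and 13 genes carry both colours.

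The kinases and adaptors (Prkcq and Bcl10 included) were set against the negative regulators. Their 109 peaks had 16 higher and 13 lower calls, 14.7% and 11.9% of the peaks. The 103 peaks of the negative regulators had 9 higher and 18 lower calls, 8.74% and 17.5%. The medians did not follow that order, at -0.07 for the kinases and adaptors and -0.01 for the negative regulators. The remaining 83 peaks, those of the phospholipases, exchange factors, Malt1 and the calcium genes, had 14 higher and 12 lower calls (16.9% and 14.5%). Their median was -0.04. The difference between the classes was not tested, since members are not replicates of a condition.

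Single libraries moved these counts too, as they moved the counts of all peaks given above. Lower calls of the kinases and adaptors fell to 3 without wildtype library 2, 4 without Rroid-deficient library 4 and 5 without Rroid-deficient library 6. For the negative regulators the lower calls fell to 8 with wildtype library 2 left out and to 10 with Rroid-deficient library 4 left out, and the higher calls fell to 5 with wildtype library 3 left out and to 4 with Rroid-deficient library 6 left out. Ptprc (CD45), which also activates Src-family kinases, Ptpn11 (SHP-2), which can promote Ras signalling, and Lyn, which can inhibit, have roles on both sides. Without Ptprc and Ptpn11 the negative regulators had 6 higher and 14 lower calls among 76 peaks, and without Lyn the kinases and adaptors kept their counts among 108 peaks.

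**Figure D2:**
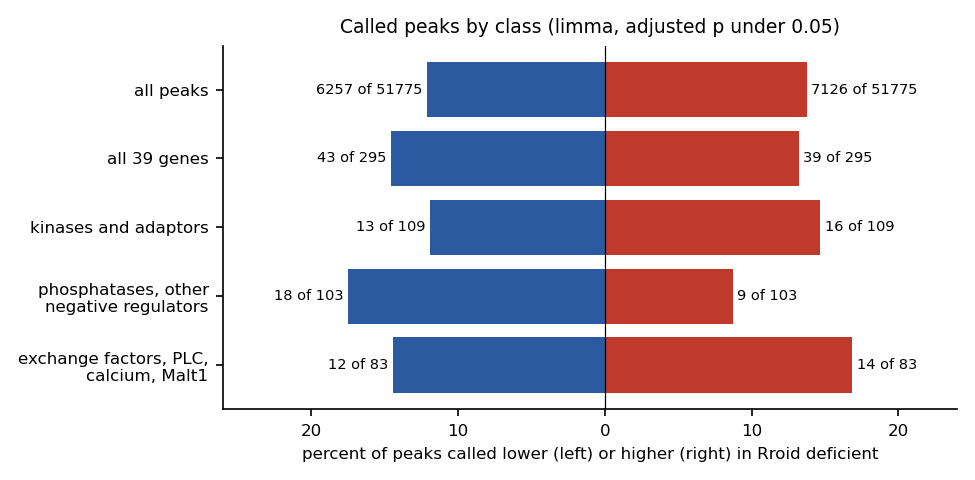
Percent of peaks called higher (red, right) and lower (blue, left) in Rroid-deficient cells, with the count beside each bar, for all peaks, all 39 genes and the 3 classes. The negative regulators have the longest bar to the left (18 of 103) and the shortest to the right (9 of 103), while the kinases and adaptors lie near the bar of all peaks.

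The kinases carried the strongest single gain, in Lck, the Src-family kinase that starts the cascade in T cells and is also expressed in NK cells. The region 6.97 kb upstream of the nearest start (mm9 chr4:129242198-129242981, in intron 1 of Lck) measured 74.8, 124 and 108 normalized reads for wildtype libraries 1, 2 and 3, against 391, 426 and 359 for Rroid-deficient libraries 4, 5 and 6 (values keep this order throughout). Every deficient library lay far above every wildtype one. The mean went from 102.5 ± 25.3 to 392.2 ± 33.7 (SD, n = 3 per genotype here and below). The log2 fold change was 1.95 (SE 0.19, 3.87-fold, limma adjusted p = 1.03e-06). Lck had 5 peaks, of which 3 were higher and 0 lower.

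The other Lck gains were smaller. At 3.36 kb, in the same intron, the signal was 264, 329 and 229 in wildtype and 419, 543 and 430 in deficient libraries (log2 fold change 0.76, adjusted p = 0.00156). The peak over one Lck start, centred at 0.899 kb, measured 2766, 2913 and 2612 in wildtype and 3315, 3724 and 3426 in deficient libraries (log2 fold change 0.34, SE 0.08, adjusted p = 0.00641). The groups stood apart at both. The peak at the other Lck start, at -0.245 kb, averaged 625.8 ± 70.0 and 688.1 ± 91.3 and had no call.

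Syk, the kinase that docks on phosphorylated receptor chains and resembles Zap70, held a gain and a loss side by side in its intron 3. At 20.4 kb (chr13:52712411-52712971) the wildtype libraries gave 62.3, 82.3 and 48.8 and the deficient ones 149, 189 and 155 (log2 fold change 1.36, SE 0.23, adjusted p = 2.89e-04). At 22.5 kb (chr13:52714223-52715330) the values were 539.6, 470.5 and 456.1 in wildtype and 196, 291 and 225 in deficient libraries (log2 fold change -1.05, SE 0.15, adjusted p = 8.25e-05). The groups stood apart at both regions, in opposite directions, and 1252 bp separated them. Both calls held in each leave-out. Of the 11 Syk peaks, 1 was higher and 3 lower, and the other lower ones lay at the start site and at 3.42 kb (log2 fold change -0.53). The call at 3.42 kb was lost without wildtype library 2 or 3 or Rroid-deficient library 4 or 6 (adjusted p = 0.0775, 0.0843, 0.0608 and 0.0948).

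Zap70, the kinase best known from T cells, had 11 peaks and 1 call. That region, in intron 8 at 17.8 kb (chr1:36836068-36836860), measured 58.8, 82.3 and 84.0 in wildtype and 164, 233 and 162 in deficient libraries (log2 fold change 1.30, adjusted p = 2.91e-04). The deficient libraries all lay above the wildtype ones. The Zap70 promoter peak averaged 1580 ± 171 and 1620 ± 167 and had no call.

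Fyn, a Src-family kinase used by NK receptors together with the adaptor SAP, had 22 peaks, 2 higher and 3 lower. The deepest loss among them, in intron 3 at 92.9 kb (chr10:39181864-39183137), went from 877, 969 and 891 in wildtype to 492, 539 and 528 in deficient libraries (log2 fold change -0.81, SE 0.11, adjusted p = 3.28e-05). A weaker region in intron 2 at 61.6 kb rose from 62.6 ± 6.2 to 147.8 ± 29.6 (log2 fold change 1.21, adjusted p = 6.25e-04). These regions were called in all 6 leave-outs. The other 3 Fyn calls (0.49 at 7.14 kb, -0.32 at 32.7 kb and -0.55 at 51.5 kb) were not. The first was lost without wildtype library 1 or 3 or Rroid-deficient library 4 or 6 (adjusted p = 0.143, 0.131, 0.15 and 0.129), the second without wildtype library 2 or Rroid-deficient library 4 (0.0896 and 0.083) and the third without wildtype library 2 (0.0544). The Fyn peak at 0.999 kb, among the taller at these genes with means of 4539 ± 232 and 4256 ± 46, had no call.

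Txk, a Tec-family kinase that phosphorylates phospholipase C gamma, had 13 peaks, 5 higher and 1 lower. The strongest gain lay 8.66 kb upstream (chr5:73152343-73153006), where wildtype libraries gave 167, 186 and 154 and deficient ones 313, 434 and 391.7 (log2 fold change 1.15, adjusted p = 4.84e-05). All of the deficient values were above the wildtype ones. The 4 upstream gains, at 5.81, 8.66, 50.3 and 55.8 kb, had log2 fold changes of 0.57, 1.15, 0.55 and 0.54, held in each leave-out, and lay inside introns 15, 14, 2 and 2 of the neighbouring kinase gene Tec. Tec was itself on the list of further pathway genes, where 8 of its 11 peaks rose and 0 fell, although its promoter peak, at 2598 ± 141 and 2482 ± 202, had no call. Distance therefore splits 1 run of gains between Txk and Tec. Within Txk, the rise at 2.62 kb (0.26) was lost without wildtype library 2 or 3 or Rroid-deficient library 5 or 6 (adjusted p = 0.109, 0.151, 0.127 and 0.147), and the loss at 10.7 kb (-0.51) without wildtype library 2 or Rroid-deficient library 4 or 6 (0.0967, 0.0833 and 0.0554). Lyn had a single peak, at its start, with 2962 ± 57 and 2580 ± 50 and an adjusted p of 0.0725.

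**Figure D3:**
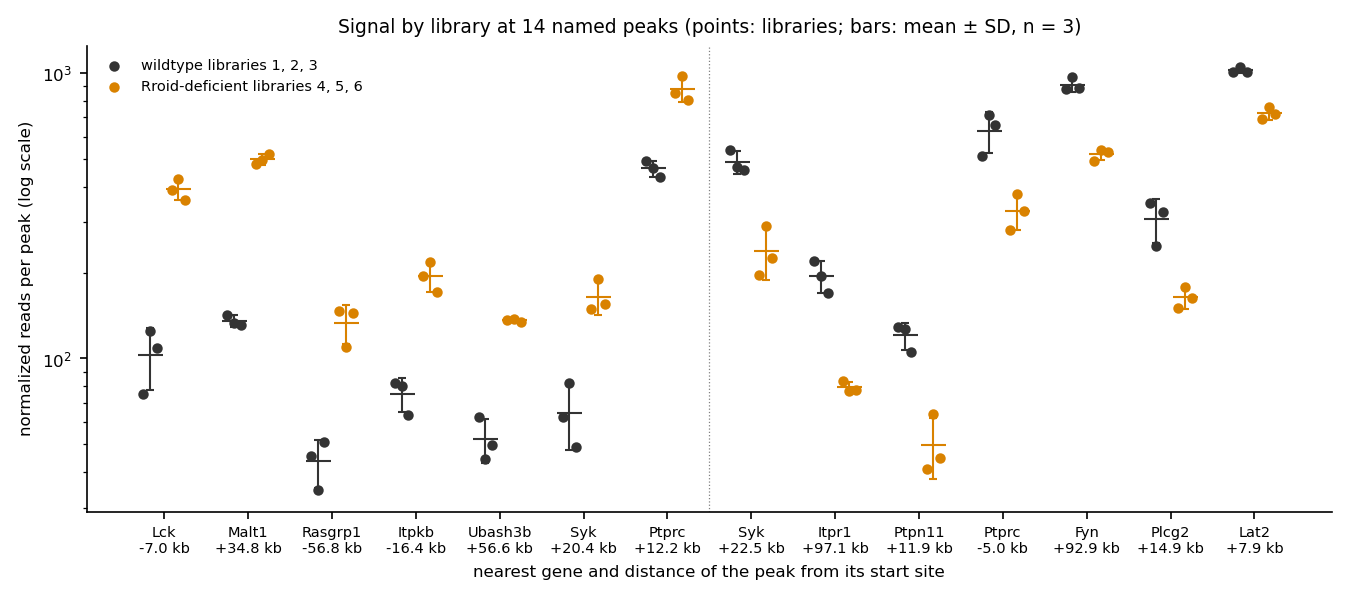
Normalized reads (log axis) in each library at 14 peaks named in the text, wildtype libraries in dark grey and Rroid-deficient ones in orange, with bars at the mean ± SD (n = 3). Left of the dotted line are 7 gains and right of it 7 losses, and the libraries of both genotypes stand apart at all 14, which the rule for naming peaks required.

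The adaptors, which have no enzymatic activity and hold signalling proteins together, had 29 peaks and a median log2 fold change of -0.20. Calls were 1 higher and 4 lower (3.45% and 13.8%, against 13.8% and 12.1% of all peaks). Lat2 (NTAL), the scaffold of B, mast and NK cells, had 3 of its 4 peaks lower. In its intron 3, at 7.90 kb (chr5:135082431-135083562), wildtype libraries gave 1012, 1054 and 1008 and deficient ones 690, 763 and 718 (log2 fold change -0.50, SE 0.10, adjusted p = 0.00141). All deficient libraries were below all wildtype ones, and the call held in each leave-out. The other Lat2 losses, at 2.98 kb (-0.33) and at -2.29 kb (-0.43), were lost without wildtype library 2, Rroid-deficient library 4 or Rroid-deficient library 6 (adjusted p = 0.104, 0.101 and 0.0614 for the first, 0.128, 0.061 and 0.142 for the second). Summed over its peaks, Lat2 in deficient cells held 79.5% of the wildtype signal, the lowest of the 39 genes.

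Sh2d2a (TSAd), an adaptor that binds Lck, had 5 peaks and 1 loss, 5.41 kb upstream, from 1261 ± 99 to 973 ± 172.5 (log2 fold change -0.38, adjusted p = 0.0254). That call was lost without wildtype library 2 or Rroid-deficient library 4 or 6 (adjusted p = 0.113, 0.124 and 0.102). Grb2, which brings the exchange factor Sos1 to the membrane, had 8 peaks and 1 gain, in intron 2 at 30.9 kb, from 64.4 ± 6.0 to 109 ± 7 (log2 fold change 0.75, adjusted p = 0.0165), lost without wildtype library 2 or Rroid-deficient library 4 (0.0618 and 0.0548). No call was made at the single peak of Lat (701 ± 58 and 739 ± 79), the scaffold of T cells, which lay at the end of the neighbouring gene Spns1. None of the 7 peaks of Sh2d1a (SAP) or the 4 of Sh2d1b1 (EAT-2), the adaptors of the SLAM-family receptors, was called. The Sh2d1a promoter averaged 926 ± 72 and 1030 ± 112 and that of Sh2d1b1 1353 ± 59 and 1313 ± 75.

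The phospholipases and exchange factors had 56 peaks, 8 higher and 8 lower (14.3% each, against 13.8% and 12.1% of all peaks). The phospholipase Plcg2, which makes the second messengers of NK receptors, had 10 peaks with 3 lower and 0 higher. In intron 2 at 14.9 kb (chr8:120036429-120037675) wildtype libraries gave 350, 248 and 327 and deficient ones 150, 178 and 163 (log2 fold change -0.90, SE 0.17, adjusted p = 7.26e-04). The groups stood apart there. Further Plcg2 losses were found 16.2 kb upstream (497 ± 33 to 322 ± 25, log2 fold change -0.63) and at 29.6 kb (1922 ± 142 to 1482 ± 133, -0.38). The call at each of the 3 regions held in each leave-out.

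Plcg1, its close relative, had 5 peaks, 1 higher and 2 lower. The region at 25.2 kb, in intron 21, rose from 840 ± 166 to 1230 ± 103 (log2 fold change 0.56, adjusted p = 0.00338). The one at 49.2 kb fell from 183 ± 23 to 97.1 ± 14.8 (-0.91, adjusted p = 0.00218) and lay in an exon of the gene Zhx3. Both held in each leave-out.

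Rasgrp1, the diacylglycerol-dependent activator of Ras, had the most mixed locus of the exchange factors, with 4 higher and 3 lower among 16 peaks, all of the called ones upstream of the gene. At 56.8 kb upstream (chr2:117224992-117225771) the wildtype libraries gave 45.4, 34.4 and 50.8 and the deficient ones 147, 109 and 144 (log2 fold change 1.60, SE 0.24, 3.03-fold, adjusted p = 1.19e-04). The groups stood far apart. At 9.81 kb upstream the signal rose from 469 ± 17 to 804 ± 53 (log2 fold change 0.78, adjusted p = 6.91e-05). Between them, it fell at 31.6 kb (666 ± 94 to 432 ± 14, -0.62) and at 47.4 kb (544 ± 54 to 363 ± 20, -0.58). These 4 calls held in each leave-out.

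Farther out, Rasgrp1 calls were small and unstable. They were 0.32 at 75.4 kb, lost without wildtype library 2 or 3 or Rroid-deficient library 5 (adjusted p = 0.0713, 0.0656 and 0.0531), and -0.28 at 96.1 kb, lost without wildtype library 2 or 3 or Rroid-deficient library 4 or 6 (0.133, 0.083, 0.108 and 0.106). The third, 0.32 at 98.2 kb, was lost in every leave-out except that of wildtype library 3 (up to 0.101). The Rasgrp1 promoter, at 2488 ± 175 and 2348 ± 75, had no call.

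Sos1, the exchange factor brought in by Grb2, rose at 38.6 kb in intron 8 from 23.3 ± 7.6 to 50.4 ± 5.8 (log2 fold change 1.13, adjusted p = 0.0247). This region held only 15 to 46 reads per library, and its call was lost without wildtype library 3 or Rroid-deficient library 4 or 6 (adjusted p = 0.114, 0.0632 and 0.095). The other Sos1 gain (0.35 at -2.63 kb) was lost without wildtype library 2 or Rroid-deficient library 4 or 6 (0.113, 0.0672 and 0.0901). Vav3 had 1 gain among 7 peaks, 16.8 kb upstream (101 ± 7 to 160 ± 28, 0.64), lost without wildtype library 2 or 3 or Rroid-deficient library 4 (0.0614, 0.0604 and 0.116). Vav1, the main Vav protein of blood cells, had 9 peaks and Vav2 had 2, with no call. The Vav1 promoter averaged 1756 ± 137 and 1558 ± 122.

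PKC theta and the Bcl10-Malt1 pair, which link the receptors to NF-kappaB, had 24 peaks. Of these, 4 were higher and 5 lower (16.7% and 20.8%, against 13.8% and 12.1% of all peaks). Malt1, a scaffold and protease, held the gain with the smallest adjusted p of the 295 peaks, in its intron 12 at 34.8 kb (chr18:65624968-65625861). Wildtype libraries gave 142, 133 and 131 there and deficient ones 480, 495 and 521 (log2 fold change 1.87, SE 0.14, 3.66-fold, adjusted p = 7.45e-08). The libraries of each genotype lay close together and far from the other genotype. The other 3 called of the 7 Malt1 peaks fell, by 0.28 on the log2 scale 15.4 kb upstream, by 0.23 at the promoter and by 0.43 at 59.3 kb. All 3 were lost without wildtype library 2 or Rroid-deficient library 4 or 6 (adjusted p = 0.155, 0.111 and 0.134 upstream, 0.124, 0.117 and 0.144 at the promoter, 0.176, 0.12 and 0.113 at 59.3 kb). The upstream call was also lost without wildtype library 1 (0.0695), and the other 2 without wildtype library 3 (0.0842 and 0.071). Summed over its peaks, Malt1 held 87.5% of the wildtype signal.

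Prkcq (PKC theta), a kinase activated by diacylglycerol, had 14 peaks, 3 higher and 2 lower. Its gains were at -53.3 kb (82.8 ± 13.2 to 141.9 ± 15.2, log2 fold change 0.78, adjusted p = 0.0101), at 22.6 kb in intron 1 (302 ± 17 to 431 ± 27, 0.51, adjusted p = 0.00723) and at 8.98 kb (0.62). The first and second held in each leave-out, and the third was lost in all 6 (adjusted p = 0.0521 to 0.133). Its losses were both at tall peaks, at 0.720 kb and, in intron 1, at 45.5 kb (2343 ± 138 to 1912 ± 78, -0.29). They were lost without wildtype library 2 or 3 or Rroid-deficient library 4 or 6 (adjusted p = 0.136, 0.0823, 0.109 and 0.111 at 0.720 kb, 0.0909, 0.0513, 0.0631 and 0.095 at 45.5 kb). Bcl10 had 3 peaks and no call, its promoter standing at 6695 ± 378 and 6331 ± 179.

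The calcium genes had 20 peaks, 5 higher and 1 lower (25% and 5%, against 13.8% and 12.1% of all peaks). Itpkb, the kinase that phosphorylates inositol trisphosphate, had a single peak, 16.4 kb upstream (chr1:182243449-182244898). It measured 81.9, 79.8 and 63.5 in wildtype and 195, 218 and 171.7 in deficient libraries (log2 fold change 1.37, SE 0.20, adjusted p = 6.98e-05). The deficient libraries lay well above the wildtype ones. Itpr1, a calcium channel of the endoplasmic reticulum opened by inositol trisphosphate, had the loss: in intron 4 at 97.1 kb (chr6:108259768-108260539) the values went from 220, 195 and 170 to 83.5, 77.1 and 77.4 (log2 fold change -1.28, SE 0.19, adjusted p = 8.71e-05). All deficient libraries were below all wildtype ones.

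Stim1, the sensor of calcium stores, had 2 gains in its intron 1 among 4 peaks, at 58.7 kb (289 ± 10 to 487 ± 37, log2 fold change 0.75, adjusted p = 3.60e-04) and at 70.3 kb (584 ± 52 to 835 ± 89, 0.51, adjusted p = 0.00387). Its relative Stim2 had 2 among 10, both in intron 1, at 36.3 kb (42.4 ± 8.8 to 101 ± 18, 1.24, adjusted p = 0.00203) and at 40.3 kb (0.89). The last was lost without wildtype library 1 or 2 or Rroid-deficient library 4 or 6 (adjusted p = 0.164, 0.0829, 0.116 and 0.122). The promoters of both sensors had no call, at 7176 ± 439 and 6774 ± 405 for Stim1 and 3953 ± 324 and 3970 ± 120 for Stim2. Orai1, the plasma membrane channel they open, had 1 peak, at its start (3917 ± 457 and 3709 ± 536), and no call.

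Among the negative regulators, lower calls were most numerous at Inpp5d (4 of 10 peaks), Ptpn22 (3 of 7) and Ptprc (3 of 22), beside 12.1% of all peaks. Inpp5d (SHIP-1), which removes a phosphate from the lipid made by PI3-kinase, had 10 peaks with 4 lower and 1 higher. The losses were -0.37 at -12.5 kb (1488 ± 134 to 1152 ± 128), -0.31 at 0.696 kb, -0.29 at 6.34 kb (3376 ± 251 to 2765 ± 205) and -0.70 at 27.7 kb (168 ± 13 to 104 ± 20), and the gain was 0.31 at 17.1 kb (1077 ± 132 to 1336 ± 138). None of the 5 held in each leave-out. Without wildtype library 2 the adjusted p was 0.0878, 0.138, 0.11, 0.0639 and 0.053 in that order. Without Rroid-deficient library 4 the 4 losses were at 0.0752, 0.0941, 0.0886 and 0.0559. Without Rroid-deficient library 6 the first 3 losses and the gain were at 0.0708, 0.128, 0.104 and 0.0893, and the gain was also lost without wildtype library 3 (0.21) or Rroid-deficient library 5 (0.159), and the loss at 0.696 kb without wildtype library 1 (0.0629). Summed over its peaks Inpp5d held 85.2% of the wildtype signal.

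Ptprc (CD45) had 22 peaks, 2 higher and 3 lower, and larger changes. A region 4.99 kb upstream (chr1:140076510-140077233) measured 512, 712 and 660 in wildtype and 282, 376 and 328 in deficient libraries (log2 fold change -0.93, SE 0.15, adjusted p = 1.79e-04). One in intron 2 at 12.2 kb (chr1:140058970-140060127) measured 493, 465 and 434 in wildtype and 850, 977 and 809 in deficient libraries (log2 fold change 0.92, SE 0.12, adjusted p = 1.98e-05). The groups stood apart at both, so the regions on either side of the start moved in opposite directions. A second upstream loss at -13.0 kb (856 ± 58 to 488 ± 42, -0.81) and a second intronic gain at 9.09 kb (172.1 ± 12.3 to 293 ± 33, 0.76) also held in each leave-out. The loss at 32.7 kb (-0.55) was lost without wildtype library 2 or Rroid-deficient library 4 (adjusted p = 0.106 and 0.0705). The Ptprc promoter had no call (1608 ± 164 and 1411 ± 78).

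Ptpn22 (LYP or PEP), a phosphatase of Src-family kinases and Zap70, had 7 peaks with 3 lower and 0 higher. Besides the promoter, the losses lay 7.01 kb upstream (447 ± 38 to 312 ± 64, log2 fold change -0.54, adjusted p = 0.0158) and 13.1 kb upstream (118 ± 25 to 69.0 ± 14.6, -0.76, adjusted p = 0.0287), both in an intron of the neighbouring gene Bcl2l15. The first was lost without wildtype library 2 or Rroid-deficient library 4 (0.076 and 0.0865), and the second without wildtype library 1 or 2 or Rroid-deficient library 5 (0.0903, 0.12 and 0.086). Ptpn6 (SHP-1), the phosphatase of inhibitory NK receptors, fell in intron 3 at 3.098 kb, from 859, 871 and 843 in wildtype to 633, 668 and 649 in deficient libraries (log2 fold change -0.40, SE 0.10, adjusted p = 0.00838), with the groups apart and the call kept in each leave-out. The other Ptpn6 peak, at the promoter, had no call (575 ± 30 and 541 ± 47).

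Ptpn11 (SHP-2) had 5 peaks with 1 call each way. In its intron 1 at 11.9 kb (chr5:121628966-121630074) the signal went from 129, 127 and 105.5 to 41.1, 63.8 and 44.7 (log2 fold change -1.28, SE 0.24, adjusted p = 8.64e-04), with no overlap between the groups. The gain at 84.2 kb (0.40) was lost without wildtype library 3 or Rroid-deficient library 5 or 6 (adjusted p = 0.113, 0.0667 and 0.0503).

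Ubash3b (Sts-1), a phosphatase that acts on Syk and Zap70, had 15 peaks, 2 higher and 2 lower, all in intron 1. At 56.6 kb (chr9:40908706-40909279) wildtype libraries gave 62.3, 44.5 and 49.8 and deficient ones 137, 137 and 134 (log2 fold change 1.38, SE 0.22, adjusted p = 2.07e-04). The deficient libraries lay close together and above the wildtype ones. The losses were -0.59 at 3.85 kb (933 ± 73 to 619 ± 43) and -0.45 at 73.8 kb (2635 ± 182 to 1925 ± 136), and both held in each leave-out. The other gain, 0.45 at 76.4 kb (394 ± 40 to 537 ± 7), was lost without Rroid-deficient library 6 (adjusted p = 0.0551). Its relative Ubash3a, known from T cells, had 2 peaks and no call.

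Csk, the kinase that turns Src-family kinases off, rose at 1.501 kb (425 ± 39 to 596 ± 21, log2 fold change 0.49, adjusted p = 0.00609), which held in each leave-out, and fell at 6.70 kb (-0.36) and 11.5 kb (-0.43), all in intron 1. The fall at 6.70 kb was lost without wildtype library 2 or Rroid-deficient library 4 or 6 (adjusted p = 0.0858, 0.0924 and 0.0767), and that at 11.5 kb also without wildtype library 1 (0.132, with 0.0946, 0.15 and 0.127 for the others). Dgkz, which removes the diacylglycerol that Rasgrp1 needs, fell at 1.19 kb (3535 ± 66 to 2794 ± 128, -0.34, adjusted p = 0.00405), kept in each leave-out, and rose at -12.5 kb (0.44), lost without wildtype library 2 or 3 or Rroid-deficient library 6 (0.145, 0.0616 and 0.211). Of the ligases, Cblb, a restraint on NK-cell activation, had 1 loss among 18 peaks, in intron 4 at 94.5 kb (1015 ± 91 to 731 ± 34, -0.47, adjusted p = 0.00358, kept in each leave-out), and Cbl had none called among 3. The Cblb promoter averaged 5040 ± 593 and 4527 ± 51 and the Cbl promoter 2709 ± 418 and 2745 ± 404.

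**Figure D4:**
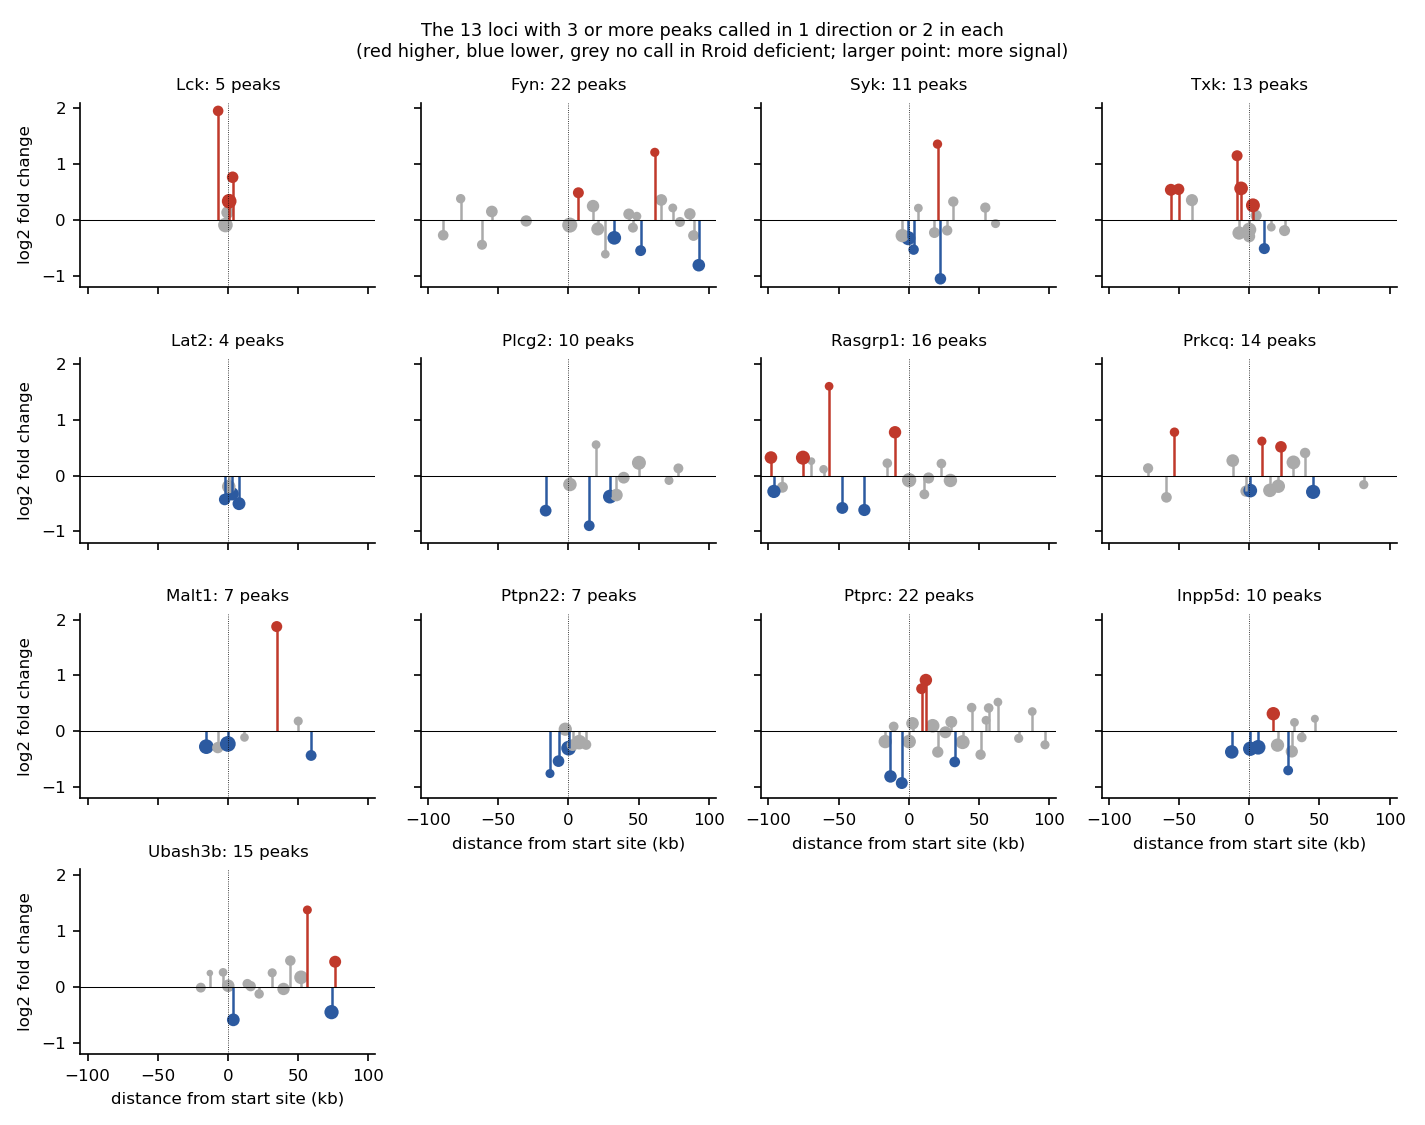
Log2 fold change of each peak (vertical axis, Rroid deficient minus wildtype) against its distance from the start site (kb) at the 13 genes with 3 or more peaks called in 1 direction or 2 in each, which hold 156 peaks. Rasgrp1, Ptprc, Ubash3b and Syk carry both red and blue stems, while Lat2, Plcg2 and Ptpn22 carry only blue and Lck only red calls.

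Promoter peaks were called at 21.6%, against 19.2% of all peaks within 1 kb of a start site. Of the 37 promoter peaks of these genes, 2 were higher and 6 lower, where 10.4% of all such peaks were higher and 8.73% lower. The gains were at the Lck start given above and at Dgka, whose enzyme consumes diacylglycerol. At Dgka the libraries gave 731, 720 and 609 in wildtype and 849, 961 and 895 in deficient cells (log2 fold change 0.39, SE 0.11, adjusted p = 0.0148). The groups did not overlap, but the call was lost without wildtype library 3 or Rroid-deficient library 6 (0.0663 and 0.055).

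The 6 promoter losses were of at most 1.25-fold. At Syk the values went from 2235, 2488 and 2141 to 1712, 2062 and 1711 (log2 fold change -0.33, adjusted p = 0.0206), and at Ptpn22 from 3738, 3926 and 3349 to 2721, 3201 and 3002 (-0.30, adjusted p = 0.0179). All deficient libraries lay below all wildtype ones at both. The other losses were at Inpp5d (2817 ± 311 to 2264 ± 225, -0.31), Prkcq (1709 ± 87 to 1418 ± 41, -0.27), Plcg1 (1637 ± 107 to 1365 ± 16, -0.26) and Malt1 (8036 ± 484 to 6862 ± 341, -0.23). All 6 were lost without wildtype library 2 or Rroid-deficient library 4 or 6, with adjusted p of 0.107, 0.0789 and 0.117 at Syk, 0.088, 0.0898 and 0.0652 at Ptpn22, and 0.146, 0.106 and 0.143 at Plcg1. Plcg1 was also lost without wildtype library 1 (0.113) or Rroid-deficient library 5 (0.0588). The adjusted p without each library for Inpp5d, Prkcq and Malt1 are given with those genes.

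Called peaks next to each other were read as pairs. Of the 24 pairs of adjacent peaks of 1 gene that were both called, 13 had the same sign and 11 (45.8%) opposite signs, beside 425 of 3209 such pairs (13.2%) over all genes, a difference that was not tested. The 11 pairs were in Fyn, Syk, Prkcq, Ptpn11 and Inpp5d once each and in Plcg1, Rasgrp1 and Ubash3b 2 times each. In Syk and in Ubash3b at 56.6 and 73.8 kb both calls held in each leave-out. So did both in Plcg1 at 25.2 and 49.2 kb and in Rasgrp1 at -47.4 and -56.8 kb. Every other pair had at least 1 call lost in some leave-out. Both were lost in Rasgrp1 at -96.1 and -98.2 kb, in Prkcq at 0.72 and 8.98 kb and in Inpp5d at 6.34 and 17.1 kb. Pairs of the same sign and those of all genes were not read in the leave-outs. The gap between the regions was 1252 bp in Syk, 1140 bp in Ubash3b (0.45 at 76.4 kb and -0.45 at 73.8 kb) and 1078 bp in Rasgrp1 (0.32 and -0.28), and these 3 pairs were singled out after their values were seen. Summed signal per gene moved less than single regions. It ranged from 79.5% of wildtype at Lat2 to 123% at Dgka, apart from the single peak of Itpkb (260%), with 116% at Lck, 83.1% at both Syk and Ptpn6, and 85.1% at Ptpn22.

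Calls were also read by peak height. Among the 183 peaks of these genes with a mean signal above the median of all peaks, 26 were higher and 37 lower (14.2% and 20.2%), as against 12.8% and 17.5% of all such peaks. Of the 112 below that median, 13 were higher and 6 lower (11.6% and 5.36%), as against 14.7% and 6.68% of all. In these 112 peaks, the median deviation from the peak mean, on the log2 scale, was 0.13 and 0.08 in Rroid-deficient libraries 4 and 6 but -0.08 in library 5. It was -0.06, -0.01 and -0.05 in the wildtype libraries. All peaks below that median gave 0.19, -0.11 and 0.10 in libraries 4, 5 and 6 and -0.003, -0.09 and -0.03 in wildtype. The 39 peaks called higher at the signalling genes gave 0.28, 0.34 and 0.30 in libraries 4, 5 and 6. Libraries 4 and 6 also had the fewest reads in peaks, and the part of depth in these deviations was not tested.

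By distance, the 61 peaks at 1 to 10 kb had 11 higher and 12 lower calls (18.0% and 19.7%), where 14.8% and 11.9% of all peaks at that distance were called. The 132 peaks at 10 to 50 kb had 14 and 18 (10.6% and 13.6%, against 14.6% and 12.5% of all). The 65 at 50 to 100 kb had 12 and 7 (18.5% and 10.8%, against 14.7% and 13.9% of all). Introns held 189 of the peaks, with 28 higher and 27 lower (14.8% and 14.3%, against 14.5% and 12.7% of all intronic peaks). Intergenic sequence held 76, with 10 and 11 (13.2% and 14.5%, against 14.4% and 13.6% of all). The peaks were wider than average, with a median of 1106 bp against 964 bp for all peaks. At the edge of the 100 kb limit, the last regions inside were at Cblb (98.2 kb, log2 fold change -0.01) and Rasgrp1 (98.2 kb, 0.32), and the first outside at Sh2d1a (100.08 kb, 0.22) and Fyn (101.16 kb, -0.48).

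**Figure D5:**
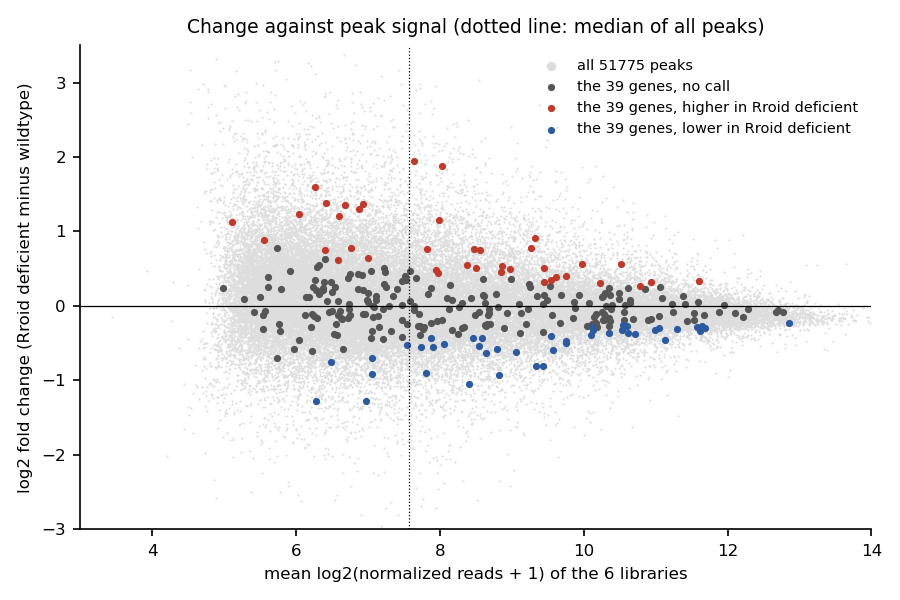
Log2 fold change (Rroid deficient minus wildtype) against the mean log2 signal of the 6 libraries, with all 51775 peaks in light grey and the 295 peaks of the 39 genes in dark grey (no call), red (higher) and blue (lower), and the median signal of all peaks as a dotted line. Right of the line lie 37 of the 43 blue and 26 of the 39 red points, where all peaks also had more lower than higher calls (17.5% and 12.8%).

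A list of 74 further genes of the same pathway (other receptor chains, kinases, exchange factors, phosphatases and scaffolds) had 397 peaks within 100 kb of 71 genes. Of these, 62 were higher and 59 lower (15.6% and 14.9%, against 13.8% and 12.1% of all peaks), with a median log2 fold change of -0.02. Of its 58 genes with a promoter peak, 4 were higher (Itpka, Wipf1, Rasa2 and Fyb) and 4 lower, among them Prkch, Ptpre and Dok1. Of all peaks within 1 kb of a start site, 10.4% were higher and 8.73% lower. The largest change among those named was at Ptpre, a receptor-type phosphatase, from 2170 ± 28 to 1370 ± 132 (log2 fold change -0.67, adjusted p = 5.17e-05). The promoters of Cd247 and Tyrobp, the receptor chains that Syk and Zap70 dock on, had no call (2748 ± 44 and 2487 ± 165, 1188 ± 100 and 1202 ± 133).

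Several of the signalling genes are used by T, B and myeloid cells too, so markers were read beside them. The 9 NK markers had 59 peaks, 5 higher and 25 lower (8.47% and 42.4%, against 13.8% and 12.1% of all peaks). Their summed signal was 95347 to 110126 in wildtype and 77806 to 94148 in deficient libraries. Klrb1c was lower at all 9 of its peaks and Gzma at 7 of 8. Tbx21 had 0 higher and 4 lower, Prf1 1 and 3, Eomes 0 and 1 and Ncr1 2 and 1. Il2rb and Klrk1 had 1 higher and 0 lower each, and Nkg7 had no call. Promoter peaks were lower at Klrb1c, Tbx21, Prf1 and Gzma and had no call at Klrk1, Nkg7, Ncr1 and Eomes. T-cell markers had 25 peaks near 8 of 9 genes, 10 higher and 2 lower (40% and 8%), with sums of 10646 to 12148 and 11727 to 12911. Of the 10 higher peaks 7 were at Cd28, the single Cd3d peak and 1 of 2 at Cd6 were the lower ones, and none of 3 at Cd3e was called. The Cd28 promoter had no call (2315 ± 106 and 2105 ± 44, log2 fold change -0.14). The promoter of Cd3g rose from 58.7 ± 5.8 to 352.8 ± 33.5 (log2 fold change 2.57, adjusted p = 3.53e-08). The Cd5 promoter averaged 64.5 ± 47.2 and 130.3 ± 11.8 (1.23, adjusted p = 0.0144), with overlapping groups. Wildtype libraries gave 118.4, 43.7 and 31.3 and deficient ones 118.0, 131.4 and 141. The gate excluded cells with CD3 and CD5 on the surface. B-cell markers had 12 peaks, 1 higher and 1 lower (8.33% each). Their sums were 8995 to 10418 in wildtype and 6673 to 7753 in deficient libraries. The median log2 fold change of these peaks was 0.35 (quartiles 0.17 and 0.50), opposite in direction to the sums. Myeloid markers had 8 peaks, 1 higher and 0 lower, with sums of 1613 to 1628 and 1408 to 1548 and a median of -0.05. No marker peak was at 0. Among signalling genes known from T cells, Lck had 3 higher and 0 lower peaks, Zap70 1 and 0 and Prkcq 3 and 2. Lat and Ubash3a had no call. Among those known from B and myeloid cells, Syk had 1 higher and 3 lower, Plcg2 0 and 3 and Lat2 0 and 3. Lyn had no call. The part of other cells in these values was not tested.

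As facts of the whole series, each library had between 27572006 and 47939665 reads in peaks, with 151 to 224 reads at the median peak, and wildtype libraries were deeper than Rroid-deficient libraries 4 and 6. A block of 13 peaks on chromosome 12, chosen for its low values in the deficient libraries, summed to 4182 to 5600 in wildtype and 51.4 to 56.8 in deficient libraries (1.09% of wildtype). All wildtype libraries lay above all deficient ones there, which the choice of the block favoured.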

How the data were processed

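ATAC-seq signal in 3 wildtype and 3 Rroid-deficient libraries of sorted mouse spleen NK cells was used, from 1 deposited table of 51775 consensus peaks (mm9) with HOMER's nearest gene and distance, per the file headers. The submitters' processing notes name HOMER, DiffBind and R 3.1.1, MACS2 2.1.0, BWA, Trimmomatic 0.32 and bcl2fastq 2.16.0. Which step each did, whether duplicates were removed and whether reads were shifted to the cut site is not given in the sources used here.

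Signal values, as the authors deposited them, were reads divided by 1 factor per library, proportional to edgeR's TMM effective library size. Within 0.01, 100% of values came out as whole reads (27572006 to 47939665 in peaks per library), though in wildtype library 2 the smallest value stood for 2 reads. Counting error is larger at low peaks. Columns showed the genotype, and libraries carry the last number of their column's name. No column was left unmapped.

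Peaks were tested with limma 3.58.1 (R 4.3.3) with an intensity trend on log2(signal + 1), which understates changes of low peaks, with Benjamini-Hochberg adjustment over all peaks and calls at an adjusted p under 0.05. A filter (10 or more in 3 libraries) removed 0 peaks. Scripts were tested on simulated data. Alternatives were the scaling (DESeq2 size factors, total reads, cyclic loess), edgeR 4.0.16, DESeq2 1.42.0 and voom on the recovered reads, the pseudocount (0.5, 5), the filter, the limit of adjusted p, the distance, leaving out each library and, chosen after the data were seen, leaving out Rroid-deficient libraries 4 and 6. The genes and lists were chosen with earlier results of these data known. Single peaks were named by rule: in each role the 2 largest gains and 2 deepest losses whose groups did not overlap, called promoter peaks, the 2 tallest uncalled promoter peaks, and loci with 3 or more calls in 1 direction or 2 in each. Other peaks given values were chosen after they were seen. The result of 1 gene of the further list is not reported here.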

Additional observations from a re-analysis of the deposited data

How the results depend on the processing

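Of the 82 called peaks, edgeR's quasi-likelihood test and DESeq2 each shared 80 and limma-voom 81 in the same direction, and pseudocounts of 0.5 and 5 shared all 82. Over all peaks edgeR called 7080 higher and 6246 lower. Scaling to total reads moved the median of all peaks to 0.05, and with it the median of the signalling genes to 0.02 and that of the negative regulators to 0.052. At an adjusted p limit of 0.01 there were 23 higher and 18 lower peaks, with 3 lower for kinases and adaptors, and 4 higher and 8 lower for negative regulators. Without Rroid-deficient libraries 4 and 6, an alternative chosen after the data were seen that leaves 1 deficient library assumed to vary like the wildtype ones, there were 19 higher and 12 lower, 9 and 2 for kinases and adaptors (median 0.013), and 3 and 4 for negative regulators.

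Leaving out 1 library at a time gave 27 to 39 higher and 18 to 49 lower peaks (medians -0.05 to -0.02), 13 to 15 and 3 to 18 for kinases and adaptors (-0.09 to -0.02), and 4 to 10 and 8 to 20 for negative regulators (-0.049 to 0.0077). These fits use fewer samples. Of the 29 called peaks named by rule, 14 kept their call in every alternative run for them. Among the named peaks, signs turned only at uncalled promoter peaks. With total reads this was so at Sh2d1b1 (0.015) and Dgkz (0.019), and with cyclic loess at Fyn (0.0037), Sh2d1b1 (0.0091), Bcl10 (0.031), Stim1 (0.030) and Dgkz (0.060). Without libraries 4 and 6 they turned at Sh2d1b1 (0.048), Stim1 (0.011) and Dgkz (0.10). With 1 library left out they turned at Stim2 (range -0.033 to 0.075), Grb2 (-0.011 to 0.22) and Dgkz (-0.11 to 0.023). Why these values moved was not tested.

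No paired analysis was possible because the Rroid-deficient columns end in 4, 5 and 6, which match no replicate number of the labels.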

Other observations

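Beyond the 100 kb limit, 35 more peaks had one of the 39 genes as their nearest gene, 11 of them higher and 5 lower, with a median log2 fold change of 0.22. That was 31.4% and 14.3%, where 15.0% and 16.8% of all 4745 peaks beyond 100 kb were higher and lower. None of those called was at least 2-fold lower and 7 were at least 2-fold higher. With them, the genes had 330 peaks, 50 higher and 48 lower, and a median of -0.02. Of these distant peaks 13 were assigned to Cblb, 5 to Stim2 and 5 to Vav3.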
